A study of Mus musculus with 8 samples.

Results

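Cadm1, the nectins and the lymphocyte receptors that bind them form an adhesion and recognition system of the immunoglobulin superfamily, and open chromatin at 9 of its genes was described in mouse spleen conventional dendritic cells. The genes were the ligands Cadm1, Nectin1, Nectin2, Nectin3 and Pvr and the receptors Crtam, Cd96, Cd226 and Tigit. They were chosen by name, and every ATAC-seq peak summit from 50 kb below to 50 kb above the mm10 span of each gene was taken. The 9 genes stand among 21883 protein-coding genes, of which 17724 had enough summits to be tested. Their windows held 180 of the 112443 distinct sites found over the 8 libraries.

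In this system a ligand on one cell meets a receptor on another. Cadm1 is an adhesion molecule that pairs with itself and with Crtam, a receptor of activated CD8 T cells and NK cells, and it is known as a surface marker of type 1 dendritic cells. Pvr (CD155) and Nectin2 are bound by Cd226 (DNAM-1), which activates T and NK cells, and by Tigit, which inhibits them, while Cd96 also binds Pvr. Nectin1 and Nectin3 are calcium-independent adhesion molecules of cell junctions that bind each other and are tied to the actin cytoskeleton through afadin.

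The libraries came from cells sorted from spleen as lineage-negative CD11c+MHCII+CD64- cells. The cDC2 cells were XCR1-CD11b+ and the cDC1 cells were XCR1+CD11b-. All mice carried floxed Hdac1 alleles and all received poly I:C, with the sort 2 weeks later; the KO mice also carried Mx1-Cre, an interferon-inducible Cre, and the mice called WT did not. The groups were KO cDC2, WT cDC2, KO cDC1 and WT cDC1, with 2 libraries each. Mx1-Cre is active in many cell types, so deletion is not limited to dendritic cells, and both genotypes received the interferon-inducing agent. Separate animals are not stated for the libraries of a group, so p-values measure the spread between these libraries.

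The lists held 69025 and 78296 summits in KO cDC2, 66609 and 61737 in WT cDC2, 74963 and 96031 in KO cDC1, and 76022 and 77585 in WT cDC1. Read depth is not in the files, so values were taken from the 61737 best-scored summits of each library unless the deposited lists are named. A site without a summit in a library was not called there, which does not show closed chromatin. The Jaccard index of sites was 0.653 to 0.697 between libraries of 1 group and 0.499 to 0.540 between libraries of different subsets. A summit near the upper end of Hdac1, the targeted gene, was called in all 8 libraries, and summits at that site cannot check the deletion. Among cDC1 marker genes, 3 of 8 (Cd8a, Irf8 and Tlr3) had fewer summits in cDC2 and Clec9a had more; among cDC2 marker genes, 2 of 8 (Clec4a4 and Esam) had more (limma, adjusted p below 0.05). The cDC1 list summed to 83 to 90 summits in the cDC2 libraries and 102 to 108 in the cDC1 libraries.

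Sequences at the gene starts are shown for the 4 genes with an entry in the RefSeq promoter table (GRCm38.p6), since they let the summits be placed against the start. Each runs 5′ to 3′ on the minus strand from 250 bases before to 50 bases after the start, and capitals mark matches on either strand to GGAA (ETS), TGTGGT (RUNX) and GGAA followed by any 2 bases and GAAA (ETS-IRF composite). The intervals are chr7:19749524-19749823 for Nectin2, chr16:46496918-46497217 for Nectin3, chr16:46120199-46120498 for Cd96 and chr16:43664135-43664434 for Tigit.
Nectin2: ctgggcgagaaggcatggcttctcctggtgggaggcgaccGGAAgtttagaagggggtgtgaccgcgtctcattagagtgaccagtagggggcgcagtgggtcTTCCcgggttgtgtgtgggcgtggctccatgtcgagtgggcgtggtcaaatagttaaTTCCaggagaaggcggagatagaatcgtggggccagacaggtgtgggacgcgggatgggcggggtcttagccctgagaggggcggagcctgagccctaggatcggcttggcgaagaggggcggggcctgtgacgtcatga
Nectin3: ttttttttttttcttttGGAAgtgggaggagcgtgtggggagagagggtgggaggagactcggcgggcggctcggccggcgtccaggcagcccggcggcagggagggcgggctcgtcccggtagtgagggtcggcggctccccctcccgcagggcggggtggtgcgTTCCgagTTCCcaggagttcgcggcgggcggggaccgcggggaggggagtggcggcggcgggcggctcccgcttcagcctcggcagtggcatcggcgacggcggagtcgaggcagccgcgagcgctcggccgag
Cd96: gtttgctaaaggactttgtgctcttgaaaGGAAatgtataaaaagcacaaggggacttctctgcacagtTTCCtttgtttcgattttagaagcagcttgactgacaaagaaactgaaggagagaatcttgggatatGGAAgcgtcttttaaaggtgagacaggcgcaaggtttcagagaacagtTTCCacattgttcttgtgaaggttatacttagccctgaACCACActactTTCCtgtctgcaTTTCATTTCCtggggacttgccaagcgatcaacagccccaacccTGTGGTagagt
Tigit: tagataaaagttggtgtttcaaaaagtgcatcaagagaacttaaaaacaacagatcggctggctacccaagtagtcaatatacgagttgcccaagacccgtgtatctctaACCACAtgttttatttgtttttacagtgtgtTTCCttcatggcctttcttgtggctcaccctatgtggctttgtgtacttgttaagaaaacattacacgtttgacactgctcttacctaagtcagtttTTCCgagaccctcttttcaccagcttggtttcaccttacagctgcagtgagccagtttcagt
The ligand starts were richer in G and C, at 62.7% in Nectin2 and 73.7% in Nectin3, than the receptor starts, at 43.7% in Cd96 and 41.3% in Tigit, against a median of 52.7% over 32851 promoters. A summit fell inside the 300 bases in 6 libraries at Nectin3, 4 at Nectin2, 3 at Cd96 and 0 at Tigit. GGAA occurred 3 times in Nectin2, 3 in Nectin3, 6 in Cd96 and 2 in Tigit, and in 96.0% of all promoters. One of the GGAA matches in Cd96 lies within its single match to the ETS-IRF composite, a motif in 2.72% of promoters. TGTGGT matched 2 times in Cd96 and 1 time in Tigit (16.8% of promoters). No match to the IRF motif, GAAA followed by any 2 bases and GAAA (3.44%), the AP-1 motif TGANTCA (7.81%) or the E-box CACGTG (7.15%) was found in these 4 windows.

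Of the 9 genes, Cadm1 and its receptor Crtam had fewer summits in cDC2 than in cDC1, and the other 7 did not pass the test. The test was limma on log2(summits + 1) per window with Benjamini-Hochberg adjustment over 17724 genes and a threshold of 0.05. By the same rule 11.8% of all genes differed between the subsets, 5.84% with more summits in cDC2 and 5.93% with fewer. The median log2 difference (cDC2 minus cDC1) was 0.09 over the 9 genes and 0 over all genes tested. Fewer cells with an open site and less open chromatin per cell cannot be told apart in these sorted bulk samples.

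**Figure D1:**
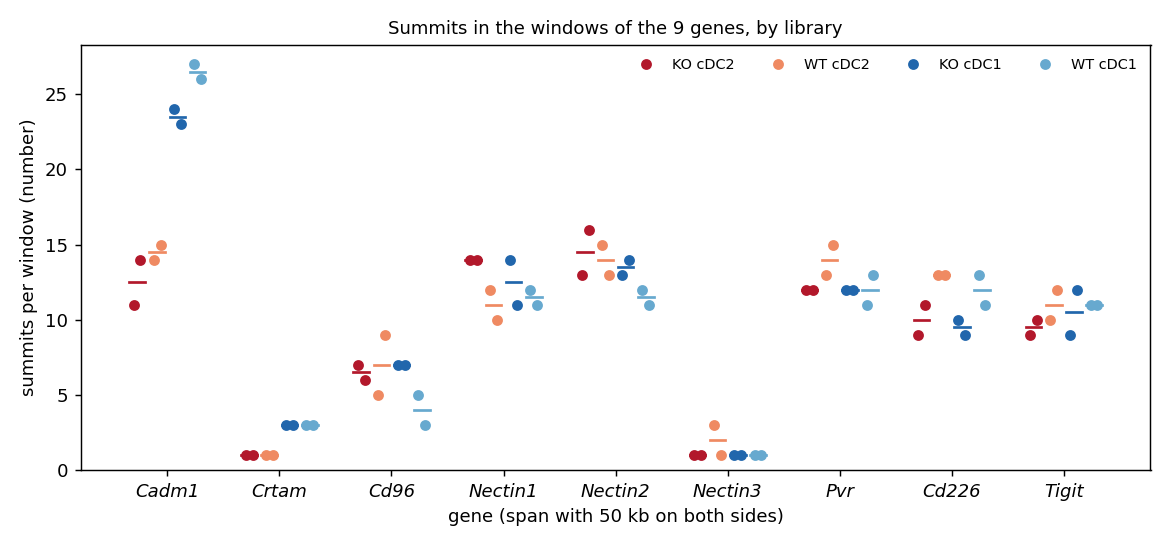
Number of summits per gene window (vertical axis) in each library for the 9 genes (horizontal axis), in equal-length lists; points are libraries and short lines are group means of 2. The cDC2 points lie between 11 and 15 at Cadm1, below all cDC1 points at 23 to 27, and the cDC2 and cDC1 libraries overlap at the genes other than Cadm1 and Crtam.

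Averaged over the 8 libraries, summits were densest around the ligands Pvr, with 10.6 per 100 kb of window, and Nectin2, with 10.1. These densities exceeded those of 91.1% and 88.9% of the tested genes. Tigit had 7.55 summits per 100 kb, Nectin1 had 7.19, Cd226 had 5.70, Cadm1 had 4.45 and Cd96 had 3.32. The place of Cadm1 in this order differed between the subsets: in cDC2 it had 3.12, below Cd96 at 3.66, and in cDC1 it had 5.79, above Cd226 at 5.50. Crtam, with 1.52, and Nectin3, with 0.593, were sparse, and 0.852% of tested genes had a lower density than Nectin3. The windows of Pvr and Nectin2 are shared with other genes: Ceacam16, Ceacam19, Ceacam20 and Igsf23 lie in the window of Pvr, and Apoe, Tomm40, Bcam and Cblc are among the genes in that of Nectin2. Of the 180 sites, 127 had one of the 9 genes as the nearest protein-coding gene.

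Cadm1 (chr9:47530170-47862280) had fewer summits in cDC2 in both genotypes. Its window held 11 and 14 summits in KO cDC2, 14 and 15 in WT cDC2, 24 and 23 in KO cDC1, and 27 and 26 in WT cDC1. Every cDC2 library was below every cDC1 library. The mean was 13.5 ± 1.73 summits in cDC2 and 25 ± 1.83 in cDC1 (SD, n = 4 each), a log2 difference of -0.85 (SE 0.125, limma adjusted p = 0.00297). Within KO mice the difference was -0.87, and within WT mice it was -0.83. In the deposited lists of unequal length the counts were 13 and 19 in KO cDC2, 15 and 15 in WT cDC2, 33 and 37 in KO cDC1, and 34 and 36 in WT cDC1.

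Of the 44 sites of Cadm1, 42 lay inside the gene, 1 within 1 kb of an end and 1 above the upper end. The first was 0.1 kb above its lower-coordinate end and the last one inside was at 253.4 kb, so the final 78.7 kb of the 332 kb span held no site. More cDC1 than cDC2 libraries held the site at 27 of the 44, and more cDC2 libraries at 9. Sites seen in cDC1 libraries without any cDC2 library numbered 20, and 6 were the reverse. Of the 44 sites, 14 were in a single library, and such a site always counts for one subset only. These counts have no share over all sites beside them.

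Sites with a summit in all 4 libraries of one subset and none of the other were counted next. Of the 180 sites, 8 were found only in cDC1 in this sense (4.44%, against 4.14% of the 99137 sites within 50 kb of a protein-coding gene) and 3 only in cDC2 (1.67%, against 2.32%). Cadm1 held 5 of the 8, and Crtam, Pvr and Cd226 held 1 each. Those of Cadm1 lay 86.4, 173.7, 197.1, 225.1 and 253.4 kb above its lower end. The best scored was the one at 225.1 kb (chr9:47755280-47755322), with within-library ranks of 13709 and 22088 in KO cDC1 and 9857 and 15761 in WT cDC1, where rank 1 is the best score. No cDC2 library had a summit there in the deposited lists either. Within 1 kb of the site at 197.1 kb, 1 library of WT cDC2 had a summit, and at the site 1 library of KO cDC2 had a summit of rank 62196 in its deposited list.

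A pair of further Cadm1 sites ranked better in cDC1 but did not meet that rule. At 131.7 kb (chr9:47661777-47661918) the deposited lists gave ranks of 34731 and 68540 in KO cDC2, 25885 and 22458 in WT cDC2, 3398 and 4418 in KO cDC1, and 2433 and 2929 in WT cDC1. The ranges of the subsets were far apart, with the cDC1 summits among the better scored of the gene. At 121.5 kb the ranks were 14105 and 9003 in KO cDC1 and 5594 and 8945 in WT cDC1. In cDC2 that site appeared in the deposited lists at rank 63149 in 1 KO library and 57488 in 1 WT library. Other Cadm1 sites went the other way. At 247.4 kb the ranks were 25124 and 39348 in KO cDC2 and 22426 and 36472 in WT cDC2. There 1 WT cDC1 library had rank 59071, and 1 KO cDC1 library had rank 81863 in its deposited list. At 1.2 kb they were 48866 and 52470 in KO cDC2, 37368 and 46780 in WT cDC2, and 55894 and 57109 in WT cDC1.

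Of the 5 Cadm1 sites present in all 8 libraries, 2 ranked lower in cDC2, as did 10.1% of all such sites. The site 0.1 kb inside the lower end (chr9:47530195-47530291) had ranks of 14483 and 8121 in KO cDC2, 7638 and 13563 in WT cDC2, 3154 and 4446 in KO cDC1, and 2116 and 2677 in WT cDC1. Ranks were compared as normal scores, on which 1 unit is 1 SD of the sites of a library and a positive difference is a better rank in cDC2. There the difference was -0.87 (SE 0.193, limma adjusted p = 0.0167 over 29645 sites), and it was lost without WT cDC2 replicate 2 (-0.75), KO cDC1 replicate 1 (-0.82) or WT cDC1 replicate 1 (-0.84). The site at 206.1 kb (chr9:47736165-47736277) had ranks of 30629 and 34318 in KO cDC2, 29196 and 36338 in WT cDC2, 15585 and 14247 in KO cDC1, and 15029 and 17469 in WT cDC1. Its difference was -1.05 (SE 0.160, limma adjusted p = 0.00471). Only 2 kb away, the site at 204.1 kb had ranks of 2561 and 4694 in KO cDC2, 4108 and 3990 in WT cDC2, 5026 and 6118 in KO cDC1, and 6939 and 6189 in WT cDC1. Its cDC2 ranks were the better ones in every library, with a difference of 0.30 that did not pass (SE 0.159, limma adjusted p = 0.209).

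**Figure D2:**
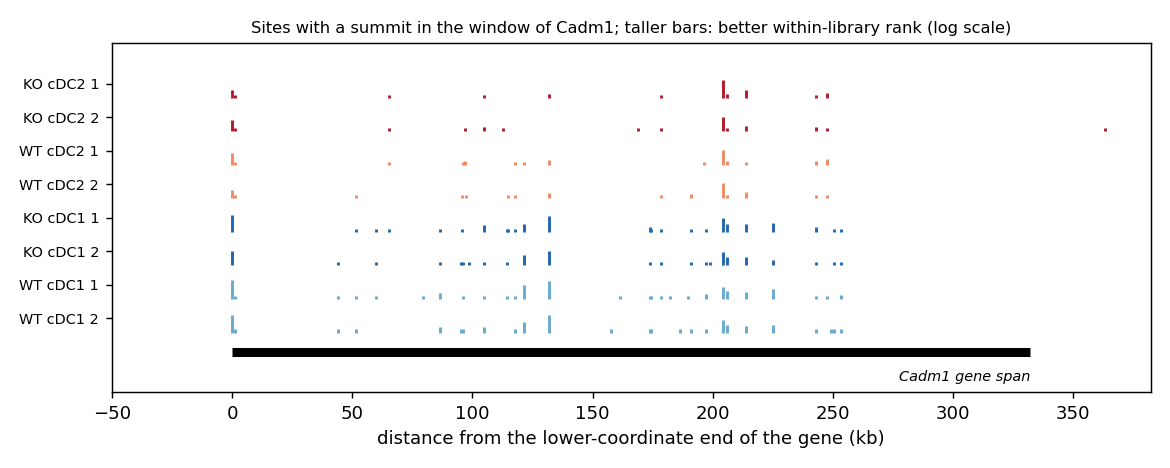
Sites with a summit along the window of Cadm1 in each library (rows), against distance from the lower-coordinate end of the gene in kb; taller bars are better within-library ranks on a log scale, with a minimum height, and the black bar is the gene. The rows of cDC1 hold 23 to 27 summits and those of cDC2 hold 11 to 15, the tall bars at 131.7 kb are in cDC1, and the final 78.7 kb of the gene is empty.

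Crtam (chr9:40972798-41004628), the receptor of Cadm1, had 1 summit in each library of KO cDC2 and WT cDC2 and 3 in each library of KO cDC1 and WT cDC1. The cDC2 and cDC1 libraries did not overlap, with a log2 difference of -1 (SE 0.128, limma adjusted p = 0.00158). Since the counts did not vary within a subset, this SE and p-value do not measure spread between the libraries of Crtam. They rest on the added rounding variance described below and on the variance that limma takes from other genes. These few summits were weak: the best rank at any of its 8 sites was 36622, so none was left among the 30868 best summits. No site of Crtam was shared by all 8 libraries. The site found only in cDC1 lay 18.3 kb above the lower end, inside the gene (chr9:40991062-40991119), with ranks of 45083 and 53099 in KO cDC1 and 45054 and 57331 in WT cDC1. A summit of 1 KO cDC2 library lay within 1 kb of it. In the deposited lists the window held 1 and 3 summits in KO cDC2, 2 and 1 in WT cDC2, 3 and 10 in KO cDC1, and 8 and 5 in WT cDC1. Jhy and Ubash3b reach into the window, and 3 of the 8 sites lay in them.

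Markers of T and NK cells, which express Crtam and the other receptors, were measured beside these counts. Of 15 genes measured from a list of 16, 1 (Zap70) had more summits in cDC2 and 0 had fewer, and none was without summits. Their sum was 124 to 144 in cDC2 and 120 to 132 in cDC1. Of 5 B cell genes, 0 had more and 1 (Ms4a1) had fewer, with sums of 29 to 33 in cDC2 and 28 to 35 in cDC1. Of 5 macrophage and monocyte genes, 0 had more and 1 (Ly6c2) had fewer, with sums of 27 to 35 in cDC2 and 30 to 37 in cDC1. The part of other cell types in the results was not tested.

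None of the 3 nectin genes passed the subset test in its counts. Nectin1 (chr9:43737075-43807461) had 14 and 14 summits in KO cDC2, 12 and 10 in WT cDC2, 14 and 11 in KO cDC1, and 12 and 11 in WT cDC1. Its log2 difference was 0.05 (SE 0.131, limma adjusted p = 0.846). The cDC2 and cDC1 libraries overlapped, and no other protein-coding gene lies in the window.

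Of the 26 sites of Nectin1, 1 was found only in cDC2 (3.85%, against 2.32% of sites within 50 kb of a protein-coding gene). Those found only in cDC1 numbered 0 (against 4.14%). The site 44.1 kb above the lower end (chr9:43781163-43781252) was found in cDC2 libraries only, with ranks of 19953 and 30996 in KO and 32344 and 30312 in WT, and it was absent from the deposited cDC1 lists. At 37.3 kb the ranks were 58166 and 59903 in KO cDC2, with no summit in WT cDC2, and 19793 and 14818 in KO cDC1 and 24987 and 18418 in WT cDC1. Less than 1 kb further, at 38.1 kb, the ranks of the subsets overlapped and were not tested. They were 11258 and 22156 in KO cDC2, 11057 and 8268 in WT cDC2, 24794 and 79702 in KO cDC1, and 19254 and 16103 in WT cDC1 in the deposited lists. None of the 5 Nectin1 sites shared by all libraries passed the rank test, which 20.5% of all such sites passed.

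**Figure D3:**
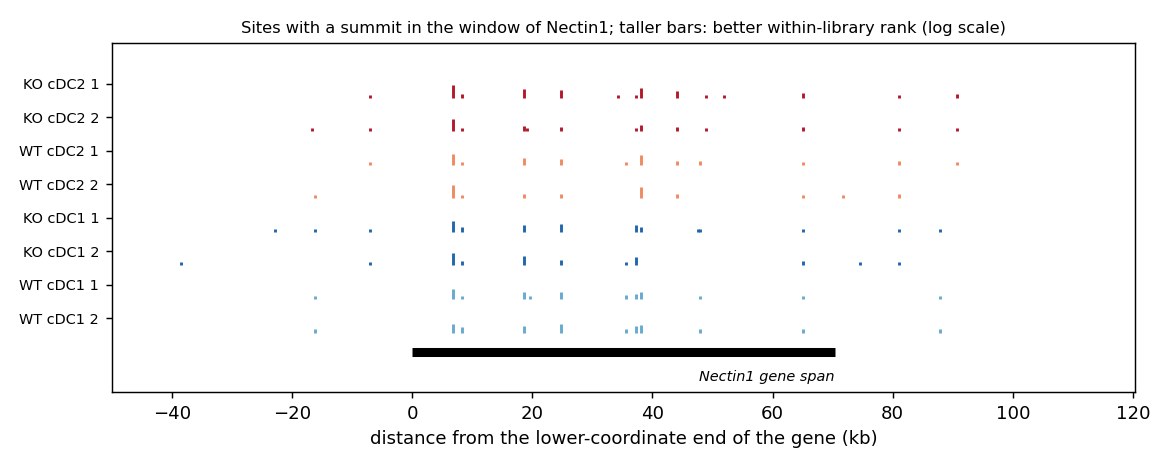
Sites with a summit along the window of Nectin1 in each library (rows), against distance from the lower-coordinate end of the gene in kb; taller bars are better within-library ranks on a log scale, with a minimum height, and the black bar is the gene. The bars at 44.1 kb are in the 4 rows of cDC2 only, and at 37.3 kb the bars of cDC1 are taller than those of the 2 KO cDC2 rows.

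Nectin2 (chr7:19716644-19749573, minus strand) had 13 and 16 summits in KO cDC2, 15 and 13 in WT cDC2, 13 and 14 in KO cDC1, and 12 and 11 in WT cDC1. Over both genotypes the cDC2 and cDC1 libraries overlapped, with a log2 difference of 0.18 (SE 0.127, limma adjusted p = 0.406). Only 3 of its 24 sites were inside the gene and 3 were within 1 kb of an end. Its start site, 0.2 kb above the upper end, was in all 8 libraries, with ranks of 15229 and 21357 in KO cDC2, 30134 and 23917 in WT cDC2, 12777 and 11213 in KO cDC1, and 39064 and 15709 in WT cDC1. The best summit within 1 kb of the start lay at positions from -705 to -129 relative to it, counted in bases, and in 4 libraries a summit fell inside the promoter shown above. The best ranked site, 0.9 kb below the lower end, was nearest to Tomm40 and had ranks from 295 to 929 in cDC2 and from 279 to 737 in cDC1. A pair of sites inside Cblc ranked higher in cDC2 (differences of 0.77 and 0.79, limma adjusted p = 0.0431 and 0.0193), and with 1 library left out at a time the calls held in 1 and 4 of 8 fits.

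Nectin3 (chr16:46387665-46498535, minus strand) had the sparsest window of the 9 genes. It had 1 and 1 summits in KO cDC2, 3 and 1 in WT cDC2, 1 and 1 in KO cDC1, and 1 and 1 in WT cDC1, with a log2 difference of 0.25 (SE 0.207, limma adjusted p = 0.473). Its single shared site was at the start (chr16:46496962-46497279) and overlapped the promoter shown above, inside which 6 libraries had a summit. Ranks there were 20638 and 22325 in KO cDC2, 27132 and 25496 in WT cDC2, 33025 and 38950 in KO cDC1, and 29375 and 36168 in WT cDC1. Every cDC2 library ranked it better than every cDC1 library, by a normal-score difference of 0.48 that did not pass (SE 0.165, limma adjusted p = 0.0698).

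Pvr (chr7:19903578-19921143), the shared ligand of Cd226, Tigit and Cd96, had 12 and 12 summits in KO cDC2, 13 and 15 in WT cDC2, 12 and 12 in KO cDC1, and 11 and 13 in WT cDC1. The subsets overlapped, with a log2 difference of 0.10 (SE 0.122, limma adjusted p = 0.630). When each summit was given to its nearest gene only, the counts were 4 and 4 in KO cDC2, 5 and 5 in WT cDC2, 6 and 6 in KO cDC1, and 6 and 7 in WT cDC1, and the difference was -0.40 (limma adjusted p = 0.162). A site at its upper end was in all 8 libraries, with ranks of 20186 and 28522 in KO cDC2, 25069 and 14769 in WT cDC2, 18534 and 26651 in KO cDC1, and 17443 and 12705 in WT cDC1. A site found only in cDC1 lay 1 kb above that end, with ranks of 39782 and 30604 in KO cDC1 and 38569 and 43933 in WT cDC1, and summits of cDC2 libraries lay within 1 kb of it. A site found only in cDC2 lay at -15.5 kb, below the lower end and nearest to Ceacam19, with ranks of 39885 and 21724 in KO cDC2 and 21926 and 31288 in WT cDC2. In its deposited list, 1 WT cDC1 library also had the site at -15.5 kb, at rank 68486.

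Among the receptors, Cd226 (chr18:89176954-89272232) had 9 and 11 summits in KO cDC2, 13 and 13 in WT cDC2, 10 and 9 in KO cDC1, and 13 and 11 in WT cDC1. The subset difference was 0.09 (log2, SE 0.128, limma adjusted p = 0.709). Although the counts overlapped, 3 of its 5 shared sites ranked higher in cDC2, at 4.9 and 80.4 kb inside the gene and at -16.9 kb, below its lower end. Of all sites present in the 8 libraries, 10.4% ranked higher in cDC2. At 80.4 kb the ranks were 5600 and 6209 in KO cDC2, 1984 and 2112 in WT cDC2, 9040 and 12739 in KO cDC1, and 7003 and 7198 in WT cDC1 (difference 0.60, SE 0.153, limma adjusted p = 0.0277). At 4.9 kb they were 7045 and 9898 in KO cDC2, 7957 and 4753 in WT cDC2, 12683 and 24060 in KO cDC1, and 15216 and 16805 in WT cDC1 (difference 0.73, SE 0.203, limma adjusted p = 0.0364). Each cDC2 library ranked above each cDC1 library at both sites. The site at -16.9 kb differed by 0.69 (SE 0.172, limma adjusted p = 0.0251). With 1 library left out at a time, the calls at 80.4, 4.9 and -16.9 kb held in 1, 1 and 2 of 8 fits.

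Of the 20 sites of Cd226, 1 was found only in cDC2 (5%, against 2.32% of sites within 50 kb of a protein-coding gene). Another 1 was found only in cDC1 (5%, against 4.14%), and both lay inside the gene. The site at 68.8 kb was found only in cDC2, with ranks of 14104 and 23115 in KO and 9083 and 10910 in WT, and was absent from the deposited cDC1 lists. At 61.3 kb the ranks were 24222 and 30261 in KO cDC2 and 10627 and 11118 in WT cDC2, with a single cDC1 summit of rank 51964 in WT. The site at 26.2 kb was found only in cDC1, with ranks of 35326 and 17763 in KO cDC1 and 52388 and 44069 in WT cDC1; the deposited cDC2 lists had it at ranks 71019 and 66188 in 1 library of each genotype.

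**Figure D4:**
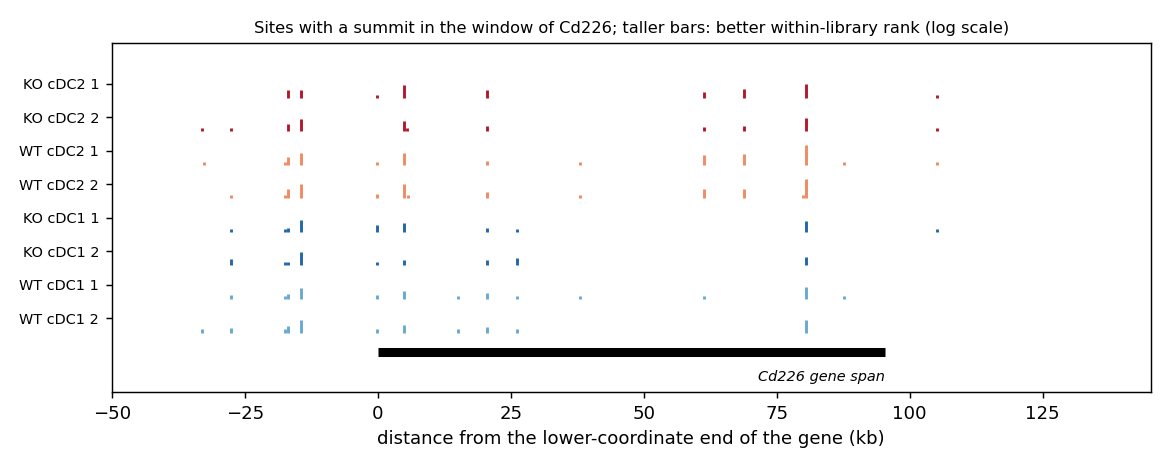
Sites with a summit along the window of Cd226 in each library (rows), against distance from the lower-coordinate end of the gene in kb; taller bars are better within-library ranks on a log scale, with a minimum height, and the black bar is the gene. Bars at 68.8 kb appear in the 4 cDC2 rows only, bars at 26.2 kb in the 4 cDC1 rows only, and the bars at 80.4 kb are taller in cDC2.

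Tigit (chr16:43626137-43665125, minus strand) had 9 and 10 summits in KO cDC2, 10 and 12 in WT cDC2, 9 and 12 in KO cDC1, and 11 and 11 in WT cDC1. Its log2 difference was -0.06 (SE 0.135, limma adjusted p = 0.811). The promoter shown above held no summit, and 1 library of KO cDC2 had one at position -320 relative to the start. The best ranked site inside the gene, 29.2 kb above its lower end, had ranks of 7041 and 5581 in KO cDC2, 7695 and 2468 in WT cDC2, 10470 and 9917 in KO cDC1, and 7629 and 9789 in WT cDC1, which overlap. A site 34 kb above the upper end (chr16:43699056-43699122), with Tigit as the nearest protein-coding gene, had ranks of 2794 and 2893 in KO cDC2, 4366 and 2574 in WT cDC2, 11273 and 9069 in KO cDC1, and 13389 and 9086 in WT cDC1. Ranks were clearly separated by subset, with a normal-score difference of 0.84 (SE 0.166, limma adjusted p = 0.0117). This call and that of Cadm1 at 206.1 kb held in all 8 leave-one-out fits. Zbtb20 overlaps the lower end of the gene and continues below it.

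Cd96 (chr16:46035652-46120248, minus strand) had 7 and 6 summits in KO cDC2, 5 and 9 in WT cDC2, 7 and 7 in KO cDC1, and 5 and 3 in WT cDC1. The subsets overlapped, with a log2 difference of 0.28 (SE 0.188, limma adjusted p = 0.361). Its window holds one of the best ranked sites of the set, 25.2 kb below the lower end and next to Plcxd2, with ranks from 51 to 199 in cDC2 and from 52 to 285 in cDC1. Nearer to Cd96, at 12.9 kb below, ranks were 17757 and 9012 in KO cDC2, 11096 and 10200 in WT cDC2, 51238 and 23281 in KO cDC1, and 26706 and 26654 in WT cDC1. The cDC2 ranks were the better ones throughout (difference 1.16, SE 0.315, limma adjusted p = 0.0339), and Plcxd2 was again the nearest protein-coding gene. That call held in 2 of 8 leave-one-out fits.

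Across the set, 38 of the 180 sites were present in all 8 libraries (21.1%, against 27.4% of sites within 50 kb of a protein-coding gene) and 53 in a single library. By rank, 9 of the 38 differed between the subsets, against 20.5% of all 29645 such sites. Leaving out 1 library at a time left 2 to 7 called, with the lowest count without WT cDC2 replicate 2 (2, against 12.8% of all such sites) and the next without WT cDC1 replicate 1 (3, against 10.9%). The count was 4 without KO cDC2 replicate 2 or WT cDC1 replicate 2, and 5 without KO cDC2 replicate 1 or KO cDC1 replicate 2. Of the 9, 7 ranked higher in cDC2 (10.4% of all sites did) and 2, both in Cadm1, ranked lower (10.1%). Sites just inside the 50 kb limit, between 45 and 50 kb from a gene, numbered 8, of which 3 were in all libraries, and 10 lay just outside it, between 50 and 55 kb, of which 2 were in all libraries.

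**Figure D5:**
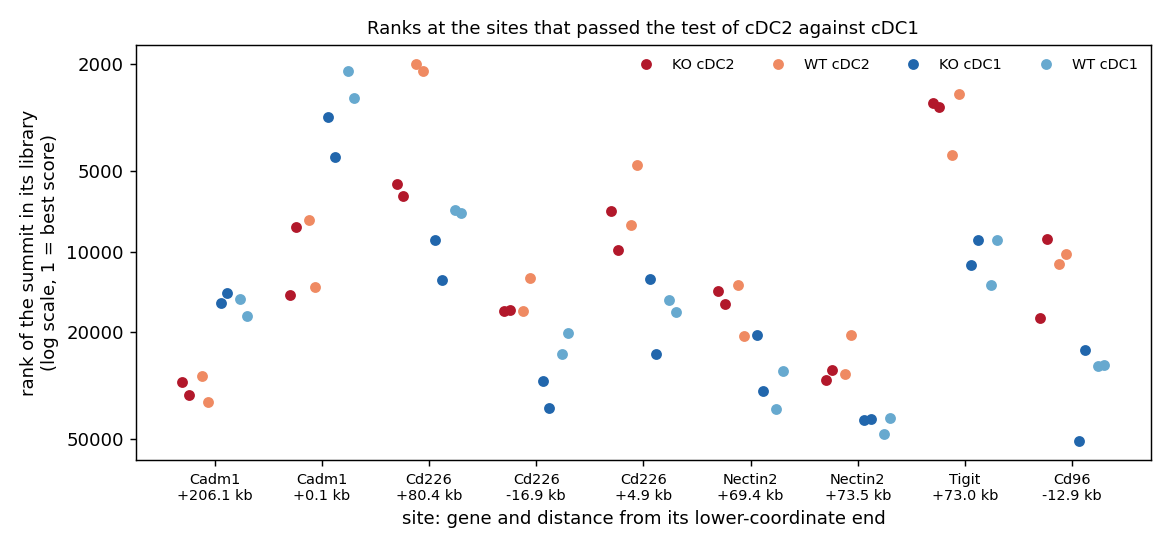
Within-library rank of the summit (vertical axis, log scale, 1 is the best score and at the top) at the 9 sites that passed the rank test of cDC2 against cDC1 (horizontal axis, gene and distance from its lower-coordinate end); points are libraries. At the 2 Cadm1 sites the cDC1 points lie higher, and at the other 7 sites the cDC2 points do, apart from 1 WT cDC2 point (rank 20763) beside 1 KO cDC1 point (rank 20535) at Nectin2 +69.4 kb.

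Between KO and WT, none of the 9 genes passed the test of summits per window. In cDC2 and in cDC1 the limma test called 0 of 9, against 0.00564% of all genes in cDC2 and 0.0169% in cDC1, and it called 0 of 9 for a difference of the KO effect between the subsets (0.0% of all genes). At an unadjusted p below 0.05 the counts were 0 members and 1041 genes in cDC2, 1 member (Cd96) and 976 genes in cDC1, and 0 members and 738 genes for the difference of the KO effects. Cadm1 had log2 differences (KO minus WT) of -0.21 in cDC2 (SE 0.177) and -0.17 in cDC1 (SE 0.177). Cd226 had -0.35 in cDC2 (SE 0.180) and -0.31 in cDC1 (SE 0.180), each KO library having 9 to 11 summits and each WT library 11 to 13. Crtam had 0 in both. By rank, limma called 0 of 38 sites in either subset and 0 of 29645 sites in all, with 3 of the 38 and 2420 of all sites in cDC2 and 2 of the 38 and 2211 of all sites in cDC1 at an unadjusted p below 0.05.

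Of the 9 genes, Cd96 had the largest KO difference in cDC1, with 7 and 7 summits in KO cDC1 and 5 and 3 in WT cDC1 (log2 difference 0.71, SE 0.266, limma adjusted p = 0.798). When each summit counted for the nearest gene only, Cd96 had 3 and 3 in KO cDC1 and 0 and 0 in WT cDC1, and the difference of 2.00 passed (SE 0.322, limma adjusted p = 0.0333). With windows of 10 kb on both sides it was also 2.00 and passed (limma adjusted p = 0.0226), and among the 30868 best summits it was -0.42. Over all genes, 0.0429% passed by nearest gene and 0.0321% with 10 kb windows. The 3 sites behind the Cd96 difference were at 52 and 66.3 kb inside the gene and at its start (chr16:46120084-46120303). In the deposited lists summits chained to a wider site at the start (chr16:46119933-46120402), with ranks of 29092 and 47081 in KO cDC1, 73716 and 69399 in WT cDC1, 43835 and 62982 in KO cDC2, and 64670 and 55329 in WT cDC2. All 8 libraries held a summit in that wider site, in WT cDC1 at ranks beyond the 61737 best summits. Neither of the other sites had a summit in the deposited WT cDC1 lists.

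Presence was also counted by genotype, as sites in both libraries of one genotype and none of the other. In cDC2, 5 of 180 sites were found only in KO (2.78%, against 2.32% of the sites within 50 kb of a protein-coding gene) and 9 only in WT (5%, against 1.9%). In cDC1, 6 were found only in KO (3.33%, against 2.15%) and 2 only in WT (1.11%, against 2.28%). Those only in WT cDC2 were spread over Nectin2 (3), Cd226 (2), Cadm1, Crtam, Pvr and Tigit (1 each). The 6 of KO cDC1 were at Cd96 (3), Nectin1 (2) and Nectin2 (1). The deposited lists held the other genotype at some of these sites, beyond rank 61737. For sites only in WT cDC2, KO ranks were 68997 (Cd226, -17.5 kb), 65546 (Nectin2, -47 kb) and 70331 (Nectin2, 76.4 kb). At Cadm1 104.8 kb, only in KO cDC2, WT cDC2 had rank 61790. At the sites only in WT cDC1, KO ranks were 61750 (Cadm1, 1.2 kb) and 68497 (Cd226, 15.1 kb). For KO cDC1, WT ranks were 63574 and 62489 (Nectin2, -15.8 kb) and 73577 (Nectin1, 81.1 kb), besides the Cd96 start.

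Other genes of the system were listed beside the 9: Nectin4, Cadm2, Cadm3, Cadm4, Pvrig, Afdn, Pard3, Epb41l3, Mpp3 and Tiam1. Of these 10, 9 were tested, 2 had more summits in cDC2 and 0 had fewer, with a median log2 difference of 0.29. Over all genes tested, 5.84% had more and 5.93% fewer, and the median was 0. Afdn, which encodes afadin, the cytoplasmic anchor of nectins, had 14 and 12 summits in KO cDC2, 13 and 15 in WT cDC2, 7 and 8 in KO cDC1, and 8 and 11 in WT cDC1. All cDC2 libraries were above all cDC1 libraries (log2 difference 0.62, SE 0.140, limma adjusted p = 0.0196). Pard3, a cell polarity protein of cell junctions, had 15 and 17 in KO cDC2, 15 and 18 in WT cDC2, 11 and 10 in KO cDC1, and 10 and 13 in WT cDC1 (0.53, SE 0.135, limma adjusted p = 0.0315). Pvrig, a receptor of Nectin2, had no summit in any library, and Cadm2, a relative of Cadm1, had 1 in each. None of the 9 tested passed in a KO comparison.

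Over the 8 libraries, the genes with counts most like those of Cadm1 were Gm16286 and Txnl4a (Pearson r = 0.988). Both lie on chromosome 18 and had the same counts, and whether their windows share summits was not tested. Next were Rfesd (0.985), Mettl15 (0.982) and Cd200 (0.981), a surface glycoprotein whose receptor inhibits myeloid cells. Cd200 had 3 and 4 summits in KO cDC2, 4 and 4 in WT cDC2, 8 and 6 in KO cDC1, and 9 and 8 in WT cDC1. Of 17551 genes compared, 402 had a correlation above 0.9 with Cadm1, a description over 8 libraries that share the split into subsets.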

How the data were processed

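ATAC-seq peak summits of 8 libraries were analysed. The authors deposited 1 MACS2 summit list per library, and column 5 of each holds a score on the −log10 scale of a p-value or q-value; which of them is not given in the sources used here. Bowtie2, SAMtools, MACS2 and MultiQC and the build mm10 (GRCm38) are named in the submitters' processing notes, and replicates were not pooled in the files. Scores were used only to rank summits within a library. Lists were shortened to the 61737 best summits, the length of the shortest list. Summits were counted per gene span with 50 kb on both sides (RefSeq GRCm38.p6 genes); a summit can count for several genes. Counts were tested as log2(summits + 1) with limma 3.58.1 in R 4.3.3 over all 4 groups, with a rounding variance of 0.0833 squared summits added to each gene and a mean of at least 1 summit required. Sites chain summits of any library within 250 bp; ranks at sites in all 8 libraries were tested with limma on normal scores. Distances are from the lower-coordinate end of a gene, since strand was known for 4 of the 9 genes only.

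On simulated data the window test made 0 calls in 3 sets without changes. In a set with known changes it recovered 31 of 100 genes changed 2-fold and 92 of 100 changed 4-fold (17702 genes, cDC2 against cDC1). It also called 6 unchanged genes there. In these sets each site was drawn at random in every library, at its share over the 8 libraries, whatever the subset. Sites tied to 1 subset in the data therefore varied within groups, so recovery in the data can differ from these figures. Changed genes had more expected summits than the means of Crtam (2) and Nectin3 (1.25), so recovery was not measured for such sparse windows. The rank test recovered 22 of 100 sites shifted by 1 normal-score unit and 78 of 100 shifted by 2, and called 6 unchanged sites. All 9 genes are named; the 5 genes most like Cadm1 follow a rule of highest Pearson correlation. The members, gene lists and variance treatment were chosen with earlier results of these data known. Alternatives were the deposited lists, the 30868 best summits, 10 kb windows, nearest gene only, other pseudocount, filter, variance, chaining and rank scale, a replicate block, only the groups compared, and leaving out each library. Sequences of 5 of the promoters, and of proteins, were not used here.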

Additional observations from a re-analysis of the deposited data

Results flagged for a closer look

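In the 4 cDC2 libraries, 1 library stood apart from the other 3 at Nectin3: WT cDC2 replicate 1 had 3 summits in the window, and the other 3 cDC2 libraries had 1 each. The 3 summits lay at or within 1 kb of the single shared site at the start of the gene. Of 18 sets of 4 libraries looked at (9 genes in each subset), this was the 1 set with such a gap. The rate of about 1 in 20 by chance is for continuous values. It does not hold for these small counts, where 1 library that differs from 3 equal ones is always flagged.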

How the results depend on the processing

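Cadm1 kept its lower count in cDC2 and its call in all 16 alternatives (log2 -1.14 to -0.77, limma adjusted p 0.00135 to 0.0106), and Crtam in the 15 in which it could be tested (adjusted p 0.000325 to 0.0143). The counts of Crtam were equal within each subset, so leaving out 1 library could not change its difference of -1. Those fits are no check on Crtam. With the 30868 best summits of each library 1 member was called in place of 2, since Crtam then had no summits; leaving out 1 library gave 2 to 2. For KO minus WT in cDC1, 1 member (Cd96) was called in place of 0 with 10 kb windows and with nearest genes only. Over all genes, 0.0321% were called with 10 kb windows and 0.0429% with nearest genes only. Leaving out 1 library gave 0 to 0 members in that comparison. Sites found only in cDC2 numbered 3 to 5 when 1 library was left out (5 without WT cDC1 replicate 1). Those found only in cDC1 numbered 8 to 10, 3 among the 30868 best, and 5 without those that had a summit of the other subset within 1 kb. Sites called by rank numbered 2 to 7 in place of 9 when 1 library was left out: 2 without WT cDC2 replicate 2, 3 without WT cDC1 replicate 1, 4 without KO cDC2 replicate 2 or WT cDC1 replicate 2, and 5 without KO cDC2 replicate 1 or KO cDC1 replicate 2. Differences that did not pass changed sign for Nectin1 (-0.144 with all deposited summits, -0.0732 among the 30868 best, -0.0112 without WT cDC2 replicate 1, -0.0314 without KO cDC1 replicate 2, and -0.0314 to 0.130 over the libraries left out), Nectin2 (-0.0952 with 10 kb windows, -0.354 nearest only), Pvr (-0.195 with all deposited summits, -0.402 with 10 kb windows and nearest only), Tigit (0.0249 with 10 kb windows, 0.0319 without KO cDC1 replicate 2, and -0.157 to 0.0319 over the libraries left out) and Cd96 in KO minus WT in cDC1 (-0.415 among the 30868 best). The cause was not tested. Deviations of libraries with the same replicate number had correlations of 0.00393 to 0.0645. These cannot decide whether such libraries share an animal, which is not stated. With the replicate block 2 members and 10 sites were called for cDC2 minus cDC1 and 0 members in either KO comparison, while the genes called over all were 2326 for the subsets and 11 in each KO comparison. Over all genes the KO calls were few and moved: in cDC2, 1 gene and 0 to 27 without 1 library, and 124 with only the groups compared; in cDC1, 3 genes and 1 to 17, and 158 with only the groups compared. All sites called by rank numbered 6077, against 3239 to 4037 without WT cDC2 replicate 2, KO cDC1 replicate 1 or either WT cDC1 library. Sites within 50 kb of a protein-coding gene numbered 99137, 124449 with all deposited summits and 47924 among the 30868 best. Those found only in cDC2 were 2303 (2.32%), 1437 with all deposited summits (1.15%) and 1414 among the 30868 best (2.95%). Those only in cDC1 were 4100 (4.14%), 5836 with all deposited summits (4.69%) and 2097 among the 30868 best (4.38%). Summit lists give no read depth, and 2 libraries a group limit what can be detected.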
